A study of Mus musculus with 18 samples.

Results

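The genes described here are 10 secreted growth factors and matrix proteins of macrophages: Igf1, Vegfa, Pdgfa, Pdgfb, Tgfb1, Hbegf and Artn, which encode growth factors, and Fn1, Tgm2 and Tgfbi, which encode proteins that form, crosslink or bind the matrix. They were taken by symbol, matched through Ensembl gene IDs to the mouse annotation, as 10 of the 48794 rows of the count table, and each had a row. RNA sequencing measured them in macrophages grown from bone marrow of male C57BL/6 mice, in 18 libraries, 6 to a group. Marrow cells of every group were matured for 7 days in M-CSF at 50 ng/ml, the main survival factor of macrophages, and were held for 24 h in M-CSF at 10 ng/ml with or without further cytokines. The IL4_IL13_TNFa group received IL-4, IL-13 and TNFa at 10 ng/ml each, the IL4_IL13 group received IL-4 and IL-13 at 10 ng/ml each, and the Control group received no cytokine besides M-CSF. A group with TNFa but without IL-4 and IL-13 was not analysed here. The labels give neither the age of the mice nor whether each library stands for its own animal or culture. The p-values thus rest on a spread between libraries that may be no more than technical.

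Macrophages exposed to the type 2 cytokines IL-4 and IL-13 are a textbook source of factors for tissue repair. Such factors reach neighbouring cells by different routes. IGF-1, PDGF, VEGF and artemin are secreted ligands of receptor tyrosine kinases, TGF-beta is secreted in a latent form that must be released before it binds its receptors, and HB-EGF is made as a membrane precursor that a protease sheds. Fibronectin is a fibril-forming glycoprotein that cells hold through integrins, transglutaminase 2 crosslinks matrix proteins, and the TGFBI protein is a matrix protein that binds collagen and integrins. TNFa is an inflammatory cytokine that acts largely through NF-kB.

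The libraries held between 14793404 and 20056125 counts. The IL-4 response gene Arg1 averaged 85 CPM in IL4_IL13_TNFa, 644.7 in IL4_IL13 and 0.469 in Control, and the TNFa response gene Tnfaip3 averaged 168.4, 13.1 and 23.1 CPM in the same order of groups. CPM are counts per 1000000 of the library total after TMM scaling. Macrophage markers were high as a sum in every library: the 10 markers summed to between 9674.3 and 10580.5 CPM in IL4_IL13_TNFa, 9826 and 12143.1 in IL4_IL13, and 15800.3 and 27691.9 in Control. On average Csf1r and Lyz2 made up most of that sum in each group. Single macrophage markers also moved with the treatments, and Adgre1, which encodes F4/80, averaged 573.2 CPM in IL4_IL13_TNFa, 1160.9 CPM in IL4_IL13 and 2302.5 CPM in Control. Fcgr1 averaged 0.998, 21.8 and 130.2 CPM and Mertk 13, 36.3 and 123.5 CPM in the same order of groups. Spi1 and Cd68 instead averaged 661.3 and 849.4 CPM in IL4_IL13_TNFa against 412.1 and 758.9 in Control. In that comparison 2 of the 10 markers rose and 8 fell under TMM scaling, at an adjusted p under 0.05. Of all genes tested 36.4% rose and 37.3% fell. The call of Cd68 depended on the scaling, with a log2 fold change of 0.16 under TMM (adjusted p = 0.00115, edgeR's quasi-likelihood test). With libraries scaled by their totals alone the same test gave -0.09 (adjusted p = 0.0433). The part of the macrophage markers in the results below was not tested. Cd3d, Nkg7, Ly6g and Fcer1a, defining genes of T cells, NK cells, neutrophils and mast cells, had 0 counts in the 18 libraries, which allows up to 0.00978 CPM over all libraries. Other markers of these cells were present at low levels, and the lists of neutrophil, B cell, T and NK cell, and mast cell and basophil markers each summed to at most 4.51 CPM in any library. Megakaryocyte and platelet markers summed to 99.9 to 221.3 CPM in IL4_IL13_TNFa, 154.7 to 322.1 in IL4_IL13 and 24.5 to 50.4 in Control. Nearly all of it was Vwf, also an endothelial marker, with means of 150.9, 235.1 and 35.1 CPM. Ppbp averaged 6.31, 0.178 and 0.82 CPM in the same order, and the list's other markers at most 0.651 in any group. The 6 dendritic cell markers summed to between 34.9 and 37.8 CPM in IL4_IL13_TNFa, 2.77 and 5.67 in IL4_IL13, and 1.25 and 3.63 in Control. Zbtb46 averaged 33.8 CPM in IL4_IL13_TNFa and 2.76 in IL4_IL13, most of the sum there, and 0.708 in Control. Flt3, the other dendritic cell marker tested, went the other way, at 0.289, 0.541 and 0.857 CPM in the same order of groups. The part of these cells in the results was not tested. Control replicate 1 stood apart from its group: 1836 genes differed there by more than 2-fold from the rest of its group, while no other library had over 393 such genes. Results that rest on it are also given without it.

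The 10 genes differed widely in level, here compared between genes as CPM per kb of merged exons. In IL4_IL13_TNFa Tgfbi at 288 ± 37.8, Igf1 at 132 ± 8.37, Tgfb1 at 94.1 ± 5.24, Pdgfb at 53.8 ± 4.56 and Tgm2 at 28.9 ± 4.26 CPM per kb (SD, n = 6) stood in that order with no overlap between neighbours. Below them Pdgfa at 15 ± 1.88, Fn1 at 14.7 ± 4.96 and Artn at 10.8 ± 1.89 CPM per kb could not be ordered beyond their spread in IL4_IL13_TNFa, and Vegfa at 2.42 ± 0.106 and Hbegf at 0.195 ± 0.0614 CPM per kb were lowest. In IL4_IL13 the order was Tgfbi at 268.2 ± 67.6, Igf1 at 180.2 ± 12.7, Tgfb1 at 83.2 ± 6.68, Tgm2 at 48.5 ± 15.7, Pdgfb at 43.4 ± 1.85, Fn1 at 37.9 ± 9.46, Pdgfa at 23.2 ± 1.26, Vegfa at 7.02 ± 0.855, Hbegf at 0.366 ± 0.128 and Artn at 0.017 ± 0.0321 CPM per kb. The highest Igf1 library of IL4_IL13, at 194.5 CPM per kb, reached above the lowest Tgfbi library, at 189.3. Neighbours in IL4_IL13 that did not overlap were Igf1 and Tgfb1, Pdgfa and Vegfa, Vegfa and Hbegf, and Hbegf and Artn. In Control Tgfbi was highest at 306.7 ± 70, followed by Igf1 at 90.6 ± 13.3, Tgfb1 at 75.5 ± 7.11, Pdgfb at 56.9 ± 6.21, Tgm2 at 29.7 ± 13.9, Pdgfa at 17.7 ± 5.39, Vegfa at 15.2 ± 3.67, Fn1 at 8.85 ± 5.66, Hbegf at 0.157 ± 0.0919 and Artn at 0.0452 ± 0.0672 CPM per kb. Neighbours in this Control order overlapped except Tgfbi and Igf1, and Fn1 and Hbegf. Artn thus stood near Fn1 and Pdgfa in IL4_IL13_TNFa and last in the other groups.

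**Figure D1:**
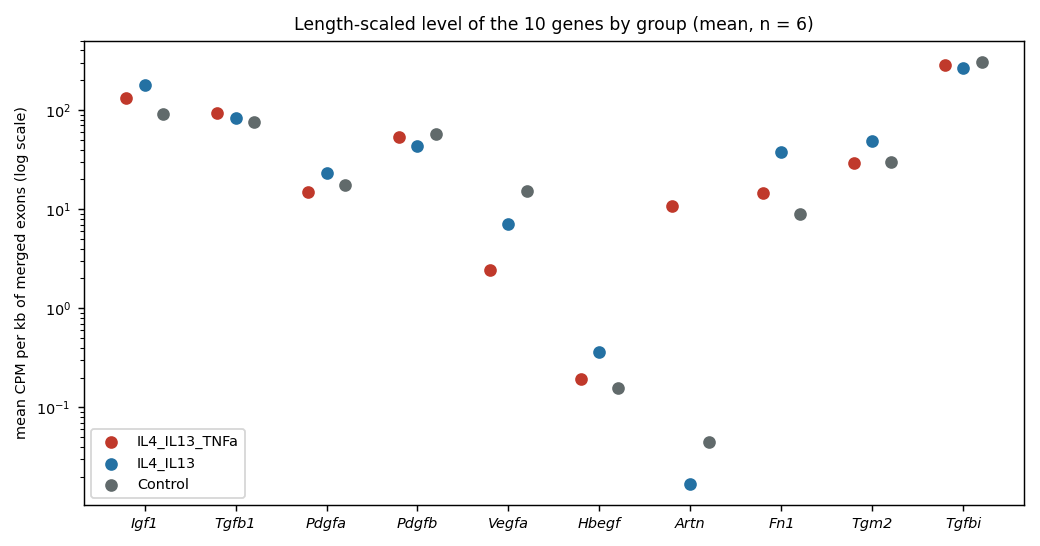
Mean level of the 10 genes as CPM per kb of merged exons (log axis, n = 6 libraries a group) in IL4_IL13_TNFa, IL4_IL13 and Control. Tgfbi was highest in each group, at 288, 268.2 and 306.7 CPM per kb, and Artn, with no IL4_IL13_TNFa library below 8.61 CPM per kb, averaged 0.017 in IL4_IL13 and 0.0452 in Control.

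In IL4_IL13 against Control 5 of the 10 genes rose and 2 fell, at an adjusted p under 0.05 in edgeR's quasi-likelihood test (Benjamini-Hochberg over 13177 genes). Igf1, Fn1, Tgm2, Pdgfa and Hbegf rose, Pdgfb and Vegfa fell, and Tgfbi, Tgfb1 and Artn did not pass. Over all genes tested 59% passed, 29.3% higher and 29.7% lower, so a share of 7 in 10 stands near that of any gene. The median log2 fold change was 0.26 over the 10 genes and 0 over all genes. Libraries of both groups did not overlap for Igf1, Fn1, Pdgfb and Vegfa, and the same held for 26.7% of all genes.

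With TNFa added to IL-4 and IL-13, 5 of the 10 genes fell and 3 rose against IL4_IL13. Igf1, Fn1, Tgm2, Pdgfa and Vegfa fell, Artn, Pdgfb and Tgfb1 rose, and Tgfbi and Hbegf did not pass. Over all genes 59.6% passed, 30.3% higher and 29.3% lower, and the median log2 fold change was -0.54 over the 10 genes against 0 over all genes. Groups did not overlap for 6 of the 10 genes and for 44.9% of all genes. Against Control, IL4_IL13_TNFa cells had higher Igf1, Tgfb1 and Artn and lower Vegfa, while the other 6 genes did not pass, and 73.8% of all genes did, 36.4% higher and 37.3% lower. The median was 0.14 over the 10 genes and -0.02 over all genes, and groups did not overlap for 4 of the 10 genes and for 51.2% of all genes. Without Control replicate 1 the counts were 7 of 10 for IL4_IL13 against Control and 9 of 10 for added TNFa, with Hbegf the gene gained. For IL4_IL13_TNFa against Control the count was 4 of 10. Calls over all genes rose too, to 9081, 8727 and 10371 genes in the 3 comparisons, from 7774, 7856 and 9722 with every library. The 3 comparisons share libraries, so their values stand side by side and are not independent of each other. These are bulk samples, in which fewer cells of a type and less RNA per cell cannot be told apart.

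**Figure D2:**
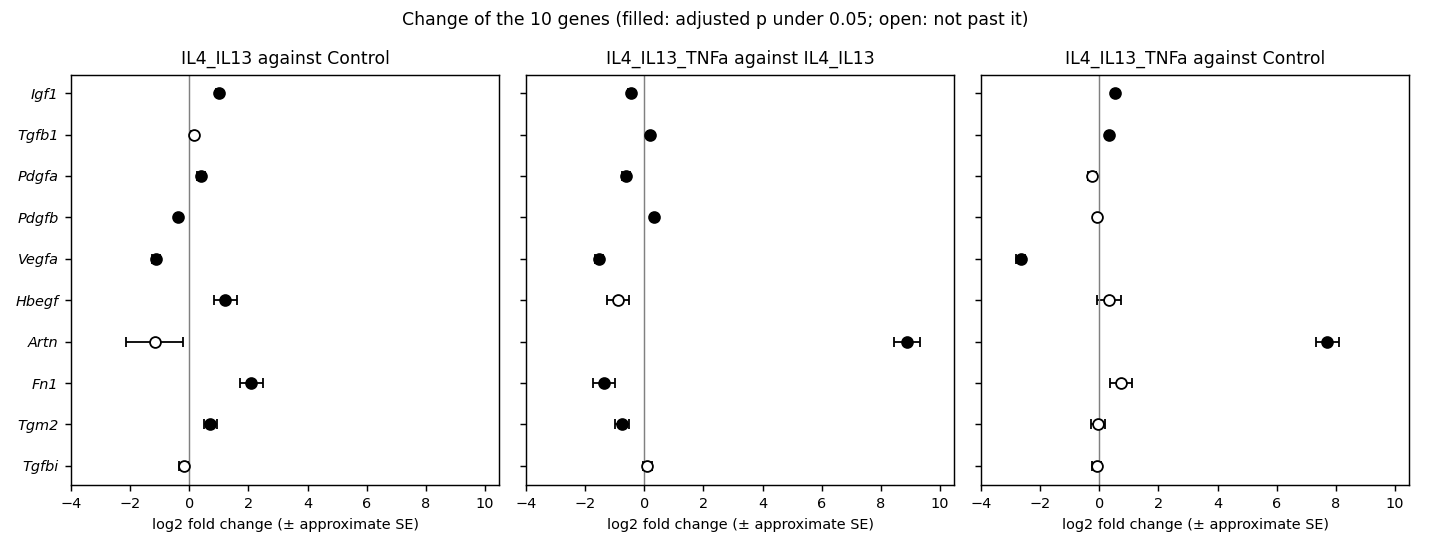
Log2 fold change of each of the 10 genes (x axis, with approximate SE) in the 3 comparisons, filled where the adjusted p was under 0.05. Artn lies at 8.9 against IL4_IL13 and 7.71 against Control in IL4_IL13_TNFa cells, fitted values that depend on the few counts in the other groups, and Vegfa lies below 0 in each comparison.

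Artn showed the greatest change of the 10 genes with added TNFa. It encodes artemin, a neurotrophic ligand of the GDNF family that signals through RET with the co-receptor GFRA3 (ENSMUSG00000028539, chr4:117926162-117929763, minus strand, GRCm38). Its 250 bases before the start of transcription are shown with those of Vegfa, which fell with both treatments, and of Tgfb1, which rose least among the genes that passed with added TNFa. Igf1, Tgfbi and Pdgfa also had entries in the promoter set used, and Vegfa had a further one, promoter 2. These windows overlap exons and are not shown. Sequences are from RefSeq, GRCm38.p6, 5′ to 3′ on the gene's strand; capitals mark a match to the NF-kB consensus, searched on both strands.
Artn, chr4:117929764-117930013, minus strand: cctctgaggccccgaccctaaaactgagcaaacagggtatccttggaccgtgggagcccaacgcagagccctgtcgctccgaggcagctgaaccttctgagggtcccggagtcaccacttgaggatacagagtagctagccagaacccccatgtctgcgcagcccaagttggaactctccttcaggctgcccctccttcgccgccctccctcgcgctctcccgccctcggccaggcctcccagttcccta
Vegfa, chr17:46032378-46032627, minus strand: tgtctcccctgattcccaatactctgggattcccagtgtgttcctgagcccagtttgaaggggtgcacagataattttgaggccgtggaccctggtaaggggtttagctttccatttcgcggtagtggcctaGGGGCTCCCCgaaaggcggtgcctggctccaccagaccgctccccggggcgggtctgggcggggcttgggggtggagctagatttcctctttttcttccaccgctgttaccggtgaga
Tgfb1, chr7:25686752-25687001, plus strand: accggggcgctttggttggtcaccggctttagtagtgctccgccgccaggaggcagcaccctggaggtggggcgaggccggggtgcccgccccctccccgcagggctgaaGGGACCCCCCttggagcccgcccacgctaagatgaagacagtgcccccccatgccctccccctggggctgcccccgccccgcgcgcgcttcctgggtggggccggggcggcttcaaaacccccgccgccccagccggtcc
The Vegfa match, GGGGCTCCCC, begins 118 bases before the start, and that of Tgfb1, GGGACCCCCC, 140 bases before it; each reads as a match on both strands. The NF-kB consensus was found in 7.28% of the 32536 upstream windows of this length, the STAT6-type letters TTCNNNNGAA in 5.89%, the AP-1 letters TGANTCA in 6.73% and the hypoxia response core ACGTG in 16.7%. None of these 4 patterns occurs in the Artn window shown, and in the Vegfa and Tgfb1 windows shown the NF-kB consensus alone was found. Among the windows not shown, Vegfa promoter 2 held the hypoxia response core, beginning 211 bases before its start. The Igf1 window held the AP-1 letters, 37 bases before the start, and Pdgfa promoter 2 the NF-kB consensus, 49 bases before it. The windows of Tgfbi and of Pdgfa promoter 1 held none of the 4. A match describes letters and was not tested as a site.

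Artn counts were 298 to 478 in each IL4_IL13_TNFa library, against 5 counts in all 6 IL4_IL13 libraries together and 13 in all 6 Control libraries. In CPM, Artn lay at 20.7, 24.6 and 31.6 (lowest, median, highest) in IL4_IL13_TNFa, at 0, 0 and 0.192 in IL4_IL13 and at 0, 0.0295 and 0.401 in Control. Every IL4_IL13_TNFa library was far above every other library, and 4 IL4_IL13 and 3 Control libraries had no count. The ratio of summed counts per scaled library total was 547.7 against IL4_IL13, with a 95% interval of 234.4 to 1688.4 for counting error alone, and 222 against Control, with an interval of 129.6 to 417.6. Both increases passed (adjusted p = 4.3e-12 against IL4_IL13 and 2.37e-12 against Control). The fitted log2 fold change against Control was 7.71, and 8.71 without Control replicate 1, which holds 8 of the 13 Control counts. IL4_IL13 and Control did not differ beyond their spread (log2 fold change -1.18 ± 0.97, adjusted p = 0.301, and -0.18 without Control replicate 1, adjusted p = 0.886). The receptor partners were scarce: Gfra3 had no count in the 18 libraries, and Ret averaged 0.144 ± 0.155 CPM in IL4_IL13_TNFa, 0.346 ± 0.266 in IL4_IL13 and 0.38 ± 0.283 in Control (SD, n = 6 each), too few counts to be tested. Of the 8 other genes of the GDNF family and its receptors, 1 was tested, Gfra2, the co-receptor of neurturin, with 1.93 ± 0.33 CPM in IL4_IL13_TNFa, 9.29 ± 2.54 in IL4_IL13 and 0.654 ± 0.56 in Control. Gfra2 rose with IL-4 and IL-13 (log2 fold change 3.83 ± 0.35, adjusted p = 4.03e-08) and fell with added TNFa (-2.26 ± 0.32, adjusted p = 5.32e-06).

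**Figure D3:**
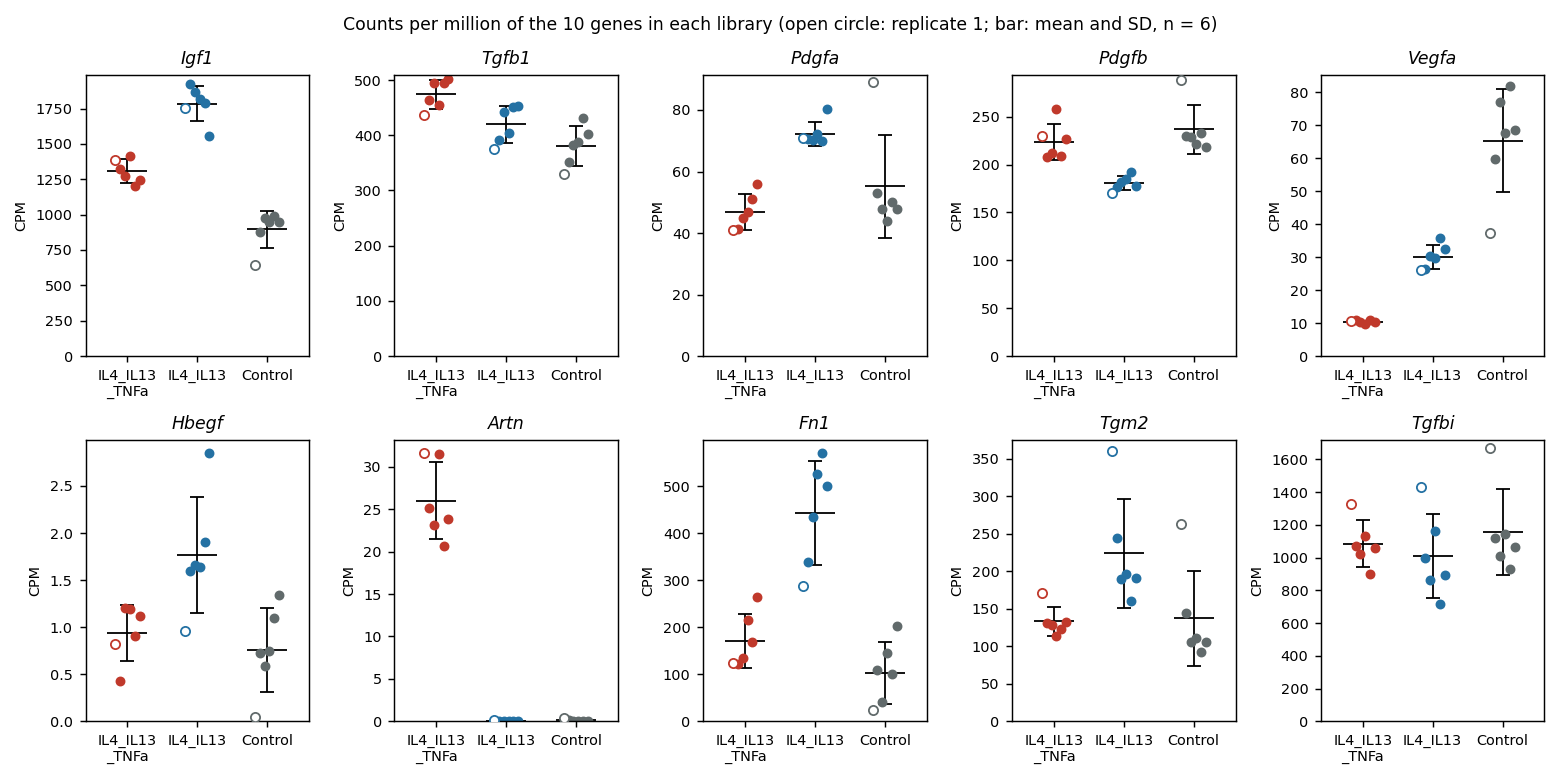
CPM of each of the 10 genes in every library (points; open circle, replicate 1) with the mean and SD (n = 6) in IL4_IL13_TNFa, IL4_IL13 and Control; axes start at 0 and differ between genes. Artn is near 0 outside IL4_IL13_TNFa, the 3 groups of Vegfa do not overlap, and Control replicate 1 lies above the other controls for Tgm2, Tgfbi, Pdgfa, Pdgfb and Artn and below them for the other 5 genes.

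Vegfa, the main growth factor of blood vessels (ENSMUSG00000023951, chr17:46016993-46032369, minus strand), was lower with each added treatment. Its CPM were 9.57, 10.4 and 10.8 (lowest, median, highest) in IL4_IL13_TNFa, 26.2, 29.9 and 35.8 in IL4_IL13 and 37.2, 68.1 and 81.7 in Control. The 3 groups were fully separate, and the lowest control was Control replicate 1. Vegfa fell by 1.12 ± 0.14 on the log2 scale in IL4_IL13 against Control (adjusted p = 1.34e-06), a 2.17-fold lower level. With added TNFa it fell by 1.54 ± 0.14 against IL4_IL13 (adjusted p = 3.1e-08), and the 3 cytokines together left it 6.31-fold lower than in Control (log2 fold change -2.66 ± 0.15, adjusted p = 7.49e-12). Each fall was seen in 6 of 6 replicate numbers. Without Control replicate 1 the changes against Control were -1.24 in IL4_IL13 and -2.77 in IL4_IL13_TNFa.

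The receptors of VEGF moved in opposite directions. Flt1, which encodes VEGFR1, averaged 333.6 ± 24.6 CPM in IL4_IL13_TNFa, 424.2 ± 28.2 in IL4_IL13 and 12.5 ± 4.05 in Control (SD, n = 6 each). It rose with IL-4 and IL-13 (log2 fold change 5.08 ± 0.16, adjusted p = 1.85e-14) and fell slightly with added TNFa (-0.35 ± 0.13, adjusted p = 0.0332). Kdr, which encodes VEGFR2, averaged 1.13 ± 0.426 CPM in IL4_IL13_TNFa, 1.4 ± 0.816 in IL4_IL13 and 9.17 ± 5.83 in Control, and fell in both comparisons with Control (-3.03 ± 0.40 in IL4_IL13_TNFa, adjusted p = 1.72e-06, and -2.68 ± 0.38 in IL4_IL13, adjusted p = 9.66e-06). The co-receptor gene Nrp1 fell against Control in both groups, with a log2 fold change of -0.51 in IL4_IL13_TNFa (adjusted p = 1.4e-05) and of -0.40 in IL4_IL13 (adjusted p = 0.000404). Nrp2, the related co-receptor gene, rose with added TNFa, with 1782.6 ± 110.4 CPM in IL4_IL13_TNFa, 642 ± 67.9 in IL4_IL13 and 586.4 ± 113.8 in Control (log2 fold change against IL4_IL13 1.47 ± 0.10, adjusted p = 3.23e-10).

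Among the related ligands, Vegfb fell in each comparison, as Vegfa did, with means of 7.87 ± 1.18 CPM in IL4_IL13_TNFa, 15.5 ± 1.27 in IL4_IL13 and 20.2 ± 1.58 in Control. Vegfc, the ligand of lymphatic vessels, instead averaged 4.11 ± 0.935 CPM in IL4_IL13_TNFa, 7.09 ± 1.29 in IL4_IL13 and 2.02 ± 0.661 in Control, higher with IL-4 and IL-13 (log2 fold change 1.80, adjusted p = 2.88e-07) and lower with added TNFa (-0.79, adjusted p = 0.00124). In the list of 14 further PDGF and VEGF ligands and receptors 10 were tested. Of these, 2 rose and 4 fell in IL4_IL13 against Control (median log2 fold change -0.39), 1 rose and 4 fell with added TNFa (median -0.26), and 3 rose and 5 fell in IL4_IL13_TNFa against Control (median -0.58). Of all genes tested, 59%, 59.6% and 73.8% passed in the same 3 comparisons. Leaving out Control replicate 1 gave 3 and 5, 1 and 4, and 3 and 5 for the list. Flt1 and Kdr are also genes of endothelial cells, whose 8 listed markers, Kdr among them, summed to between 94.4 and 219.6 CPM in IL4_IL13_TNFa, 163.1 and 329 in IL4_IL13, and 32 and 59.4 in Control. Most of that sum was Vwf, which averaged 150.9 CPM in IL4_IL13_TNFa, 235.1 in IL4_IL13 and 35.1 in Control. Vwf is also on the megakaryocyte and platelet list. Pecam1 averaged 1.45, 6.49 and 0.546 CPM in the same order of groups, and Cdh5, Tek, Tie1, Emcn and Cldn5 at most 0.938 CPM in any group. Of the 8 markers 4 were tested: 2 rose and 1 fell in IL4_IL13 against Control, 0 rose and 3 fell with added TNFa, and 2 rose and 2 fell in IL4_IL13_TNFa against Control. Their part in the results on Vegf ligands and receptors was not tested.

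Igf1, the ligand of the IGF-1 receptor and a known product of IL-4-treated macrophages (ENSMUSG00000020053, chr10:87858265-87937042, plus strand), had the greatest level per kb of the 7 growth factors in each group. Its CPM were 1200.6, 1298.6 and 1412.1 (lowest, median, highest) in IL4_IL13_TNFa, 1559.6, 1801 and 1926.7 in IL4_IL13 and 641.1, 947.2 and 993.7 in Control. No libraries of different groups overlapped, and Control replicate 1 was the lowest of all, with the other controls from 875.2 upward. Igf1 rose 1.99-fold with IL-4 and IL-13 (log2 fold change 0.99 ± 0.09, adjusted p = 1.88e-08). With added TNFa it fell 1.37-fold against IL4_IL13 (-0.45 ± 0.09, adjusted p = 0.000185), yet stayed 1.46-fold above Control (0.54 ± 0.09, adjusted p = 1.57e-05). Without Control replicate 1 the changes against Control were 0.92 in IL4_IL13 and 0.47 in IL4_IL13_TNFa.

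The IGF receptors moved apart. Igf1r, the signalling receptor, averaged 13.3 ± 1.68 CPM in IL4_IL13_TNFa, 19.9 ± 2.44 in IL4_IL13 and 29.2 ± 5.22 in Control (SD, n = 6 each), and fell with added TNFa (log2 fold change -0.58 ± 0.12, adjusted p = 0.000459) and with IL-4 and IL-13 (-0.56 ± 0.12, adjusted p = 0.00064). Igf2r, a receptor that carries IGF-2 and lysosomal enzymes to lysosomes, averaged 591.8 ± 34 CPM in IL4_IL13_TNFa, 278.2 ± 21.6 in IL4_IL13 and 173.3 ± 27.2 in Control, and rose with added TNFa (1.09 ± 0.08, adjusted p = 1.6e-09) and with IL-4 and IL-13 (0.68 ± 0.08, adjusted p = 1.42e-06). Igfbp4, an inhibitory IGF-binding protein, fell with added TNFa (-2.45 ± 0.12, adjusted p = 2.03e-12) and with IL-4 and IL-13 (-2.47 ± 0.11, adjusted p = 1.5e-12), with means of 14.9 CPM in IL4_IL13_TNFa, 81.6 in IL4_IL13 and 452 in Control. Irs2, an adaptor of the IGF-1 and insulin receptors, averaged 14.7 CPM in IL4_IL13_TNFa, 72.7 in IL4_IL13 and 26.5 in Control, higher with IL-4 and IL-13 (1.45 ± 0.08, adjusted p = 4.26e-11) and lower with added TNFa (-2.31 ± 0.09, adjusted p = 8.18e-14). Of the 15 other genes of the IGF axis 10 were tested. Of these, 3 rose and 2 fell in IL4_IL13 against Control (median log2 fold change -0.08), 2 rose and 3 fell with added TNFa (median -0.31), and 3 rose and 4 fell in IL4_IL13_TNFa against Control (median -0.35). The shares of all genes that passed were 59%, 59.6% and 73.8% in these 3 comparisons. Without Control replicate 1 the counts of the list were 3 and 3, 2 and 3, and 2 and 4. Library totals gave 1 rise with added TNFa in place of 2. With the stromal marker sum described below as a covariate, a fit added after seeing the data, 3 rose and 3 fell in IL4_IL13 against Control, 5 rose and 3 fell with added TNFa, and 4 rose and 4 fell in IL4_IL13_TNFa against Control, and the medians changed sign to 0.02, 0.08 and 0.25. Calls over all 13177 genes in that fit were 8453, 8299 and 10007. Igfbp1 had no count in the 18 libraries.

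The 2 PDGF chain genes moved in opposite directions with IL-4 and IL-13 and, under TMM scaling, with added TNFa. Pdgfa encodes the A chain (ENSMUSG00000025856, chr5:138976014-138997370, minus strand) and Pdgfb the B chain (ENSMUSG00000000489, chr15:79995874-80014977, minus strand), ligands for mesenchymal cells that join as dimers. Pdgfa lay at 41, 45.9 and 56 CPM (lowest, median, highest) in IL4_IL13_TNFa, at 69.9, 70.8 and 80.2 in IL4_IL13 and at 43.8, 49 and 89 in Control. All IL4_IL13 libraries were above all IL4_IL13_TNFa libraries, and 5 of 6 controls lay between 43.8 and 53 while Control replicate 1 held 89. Pdgfa rose with IL-4 and IL-13 (log2 fold change 0.39 ± 0.14, adjusted p = 0.0203). Leaving out Control replicate 4 ended that call (0.33, adjusted p = 0.0516), and leaving out Control replicate 1 gave 0.58 (adjusted p = 4.96e-07). With added TNFa Pdgfa fell by 0.63 ± 0.14 (adjusted p = 0.000626), to a level that did not differ beyond the spread from Control (-0.24, adjusted p = 0.121, and -0.05 without Control replicate 1). Of the merged exon bases of Pdgfa 26.07% lie opposite exons of 6330403L08Rik, whose counts fell in each comparison, with means of 11.3 CPM in IL4_IL13_TNFa, 15.3 in IL4_IL13 and 24.3 in Control. No source used here states the strand setting of the counting, and the share of such reads in Pdgfa was not tested.

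Pdgfb lay at 207.8, 219.8 and 257.6 CPM (lowest, median, highest) in IL4_IL13_TNFa, at 170.6, 179.6 and 192.7 in IL4_IL13 and at 217.9, 229.6 and 288.1 in Control. The IL4_IL13 libraries were below every library of both other groups, whose ranges overlapped. Pdgfb fell by 0.39 ± 0.07 on the log2 scale with IL-4 and IL-13 (adjusted p = 6.65e-05), and by 0.32 without Control replicate 1. It rose with added TNFa under TMM scaling (0.31 ± 0.07, adjusted p = 0.000532), but not when libraries were scaled by their totals alone (0.10, adjusted p = 0.167). That scaling moved the median log2 fold change of all genes by -0.21 for added TNFa, by -0.25 for IL4_IL13_TNFa against Control and by -0.04 for IL4_IL13 against Control, so small changes with TNFa are given relative to the median gene. The share of rises among the genes called was then 27.5% in place of 50.9% for added TNFa and 32.7% in place of 49.4% for IL4_IL13_TNFa against Control. IL4_IL13_TNFa and Control did not differ in Pdgfb beyond the spread under TMM (-0.08, adjusted p = 0.277, and -0.01 without Control replicate 1), whereas library totals gave -0.33 (adjusted p = 0.000124) and, for Pdgfa, -0.49 (adjusted p = 0.00346).

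The ratio of Pdgfb to Pdgfa, each per kb of exons in the same library, ranged from 3.04 to 4.2 (median 3.66) in IL4_IL13_TNFa, from 1.66 to 2.07 (median 1.9) in IL4_IL13 and from 2.43 to 3.8 (median 3.46) in Control. Such a ratio does not depend on library scaling, and the IL4_IL13 range lay below both others. Control replicate 1 gave the 2.43 and the other controls 3.25 to 3.8. The receptor genes Pdgfra and Pdgfrb were scarce, at 0.914 ± 0.418 and 2.88 ± 0.724 CPM in IL4_IL13_TNFa, 0.904 ± 0.863 and 3.26 ± 2.66 in IL4_IL13 and 0.641 ± 0.496 and 4.54 ± 3.22 in Control, and neither passed in any comparison. Both receptors are also stromal cell markers, and stromal marker RNA varied between libraries, as described below for Fn1.

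Tgfb1, the main TGF-beta gene of immune cells (ENSMUSG00000002603, chr7:25687002-25705077, plus strand), changed little. Its CPM were 436.9, 479.2 and 501.5 (lowest, median, highest) in IL4_IL13_TNFa, 375, 423.6 and 453.3 in IL4_IL13 and 329.8, 384.8 and 430.8 in Control. The IL4_IL13_TNFa libraries were above all controls, while IL4_IL13 overlapped both groups. Within each replicate number the order was the same, IL4_IL13_TNFa above IL4_IL13 above Control, in 6 of 6. Tgfb1 in IL4_IL13_TNFa exceeded Control 1.25-fold (log2 fold change 0.32 ± 0.07, adjusted p = 0.000262, and 0.28 without Control replicate 1), but library totals gave 0.07 (adjusted p = 0.357). With added TNFa Tgfb1 rose by 0.18 ± 0.07 under TMM (adjusted p = 0.0264), while library totals reversed the sign (-0.03, adjusted p = 0.723). That rise was also lost without IL4_IL13 replicate 1, 2 or 4 or IL4_IL13_TNFa replicate 3, 5 or 6, at adjusted p between 0.0507 and 0.0636. The change with IL-4 and IL-13 alone did not pass (0.14 ± 0.07, adjusted p = 0.0752) and passed under the replicate block (0.14, adjusted p = 0.00373).

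Several genes that release or receive TGF-beta had larger log2 fold changes than the ligand. Itgb8, the integrin chain that with alpha-v activates latent TGF-beta, averaged 101.2 ± 12.2 CPM in IL4_IL13_TNFa, 5.48 ± 0.834 in IL4_IL13 and 0.336 ± 0.176 in Control (SD, n = 6 each), a rise of 4.21 ± 0.13 on the log2 scale with added TNFa (adjusted p = 6.14e-15) and of 4 ± 0.20 with IL-4 and IL-13 (adjusted p = 7.86e-12). Lrrc32, which encodes GARP, a surface anchor of latent TGF-beta, averaged 268 ± 6.66 CPM in IL4_IL13_TNFa, 26.7 ± 8.23 in IL4_IL13 and 1.71 ± 1.07 in Control, a rise of 3.33 ± 0.22 (adjusted p = 2.79e-10) and of 3.96 ± 0.27 (adjusted p = 8.76e-10) in the same comparisons. Nrros, the related anchor of myeloid cells, rose with IL-4 and IL-13 (0.42 ± 0.06, adjusted p = 1.67e-05) and fell with added TNFa (-0.25 ± 0.06, adjusted p = 0.00264). Furin, a protease that cleaves the TGF-beta precursor, fell by 1.26 ± 0.06 with added TNFa (adjusted p = 4.65e-12), with 114.4 CPM in IL4_IL13_TNFa, 274.6 in IL4_IL13 and 258.9 in Control. Both receptor genes fell in each comparison. Tgfbr1 averaged 265.9 CPM in IL4_IL13_TNFa, 347.7 in IL4_IL13 and 530.9 in Control, and Tgfbr2 averaged 57.4, 115.9 and 281.9 CPM in that order of groups, with a fall by 2.30 ± 0.06 in IL4_IL13_TNFa against Control (adjusted p = 5.34e-17).

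Smad3, a transcription factor that acts below these receptors, averaged 5.13 CPM in IL4_IL13_TNFa, 5.98 in IL4_IL13 and 24 in Control and fell in both comparisons with Control (-2.23 and -2.01). Tgfb3, a minor ligand, averaged 1.34 CPM in IL4_IL13_TNFa, 2.89 in IL4_IL13 and 7.42 in Control and fell in each comparison. Ltbp2, which belongs to the latent TGF-beta binding proteins, fell by 2.03 ± 0.27 with IL-4 and IL-13 (adjusted p = 4.23e-06), with 12.4 CPM in IL4_IL13_TNFa, 5.6 in IL4_IL13 and 22.9 in Control. With added TNFa Ltbp2 rose (1.14 ± 0.27, adjusted p = 0.00125), and it stayed below Control (-0.88 ± 0.25, adjusted p = 0.00455). Of the 24 other genes of the TGF-beta axis 22 were tested. Of these, 7 rose and 8 fell in IL4_IL13 against Control (median log2 fold change -0.03), 7 rose and 8 fell with added TNFa (median -0.07; 7 and 11 under library totals), and 10 rose and 11 fell in IL4_IL13_TNFa against Control (median -0.39). In the same order of comparisons 59%, 59.6% and 73.8% of all genes passed. With Control replicate 1 left out the counts of the list were 6 and 9, 8 and 9, and 10 and 11. With the stromal sum as a covariate its first median was 0.06.

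**Figure D4:**
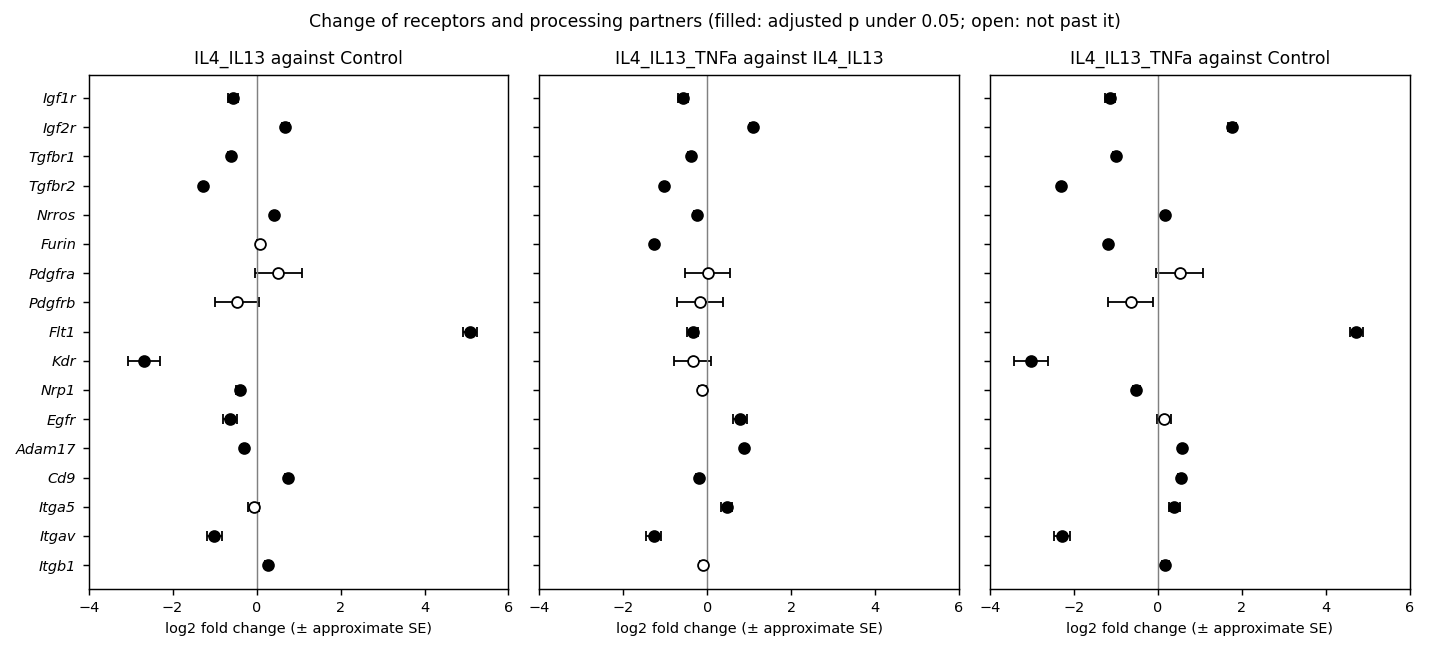
Log2 fold change (x axis, with approximate SE) of receptors and processing partners of the 10 genes in the 3 comparisons, filled where the adjusted p was under 0.05. Flt1 lies at 5.08 and Kdr at -2.68 in IL4_IL13 against Control, Igf2r lies to the right of 0 and Igf1r, Tgfbr1, Tgfbr2 and Itgav to the left in each comparison, and Pdgfra and Pdgfrb are open.

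Hbegf, the heparin-binding ligand of the EGF receptor (ENSMUSG00000024486, chr18:36504927-36515805, minus strand), was scarce in every group. It had 6 to 19 counts in each IL4_IL13_TNFa library, 20 to 53 in IL4_IL13 and 1 to 24 in Control. In CPM it lay at 0.426, 1.01 and 1.2 (lowest, median, highest) in IL4_IL13_TNFa, at 0.96, 1.65 and 2.85 in IL4_IL13 and at 0.0502, 0.736 and 1.34 in Control. The highest values were in IL4_IL13, all 3 groups overlapped, and the single count was that of Control replicate 1. Hbegf rose 2.33-fold with IL-4 and IL-13 (log2 fold change 1.22 ± 0.38, adjusted p = 0.0107), in 6 of 6 replicate numbers, and by 0.97 without Control replicate 1 (adjusted p = 0.00494). The lower level with added TNFa did not pass (-0.89 ± 0.38, adjusted p = 0.0509), although it was lower in 6 of 6 replicate numbers and passed under the replicate block (-0.88, adjusted p = 0.0144), and when single libraries were left out: the log2 fold change was -0.89 without Control replicate 1 (adjusted p = 0.00713) or 6 (adjusted p = 0.0444), and -1.03 if IL4_IL13 replicate 1 was dropped (adjusted p = 0.0283). Against Control the 3 cytokines gave 0.33 ± 0.41 (adjusted p = 0.48), and 0.08 without Control replicate 1 (adjusted p = 0.824).

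Adam17, the protease that sheds HB-EGF, averaged 635.2 ± 31.9 CPM in IL4_IL13_TNFa, 348.6 ± 22.9 in IL4_IL13 and 427.4 ± 23.5 in Control (SD, n = 6 each). It rose with added TNFa (log2 fold change 0.87 ± 0.05, adjusted p = 4.87e-11) and fell with IL-4 and IL-13 (-0.29 ± 0.05, adjusted p = 9.18e-05). Rhbdf2, which encodes iRhom2, a partner that brings the protease to the surface, averaged 253.6 CPM in IL4_IL13_TNFa, 85.4 in IL4_IL13 and 86.5 in Control, and rose with added TNFa (1.57 ± 0.07, adjusted p = 4.71e-13). Its relative Rhbdf1 fell in IL4_IL13_TNFa against Control (-1.82 ± 0.21, adjusted p = 3.49e-07). Cd9, a tetraspanin that binds the HB-EGF precursor, averaged 572.2 CPM in IL4_IL13_TNFa, 657 in IL4_IL13 and 393.4 in Control, and rose with IL-4 and IL-13 (0.74 ± 0.06, adjusted p = 2.88e-09).

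Egfr, the receptor, averaged 4.35 ± 0.64 CPM in IL4_IL13_TNFa, 2.52 ± 0.496 in IL4_IL13 and 3.93 ± 0.955 in Control, and rose with added TNFa (0.78 ± 0.17, adjusted p = 0.00047). Another ligand of the family, Nrg1 (neuregulin 1, which binds ERBB3 and ERBB4), averaged 17 ± 1.94 CPM in IL4_IL13_TNFa, 0.446 ± 0.104 in IL4_IL13 and 0.286 ± 0.159 in Control, a rise of 5.23 ± 0.20 on the log2 scale with added TNFa (adjusted p = 8.06e-14). Erbb3 itself fell in IL4_IL13_TNFa and in IL4_IL13 against Control (-0.53 and -0.34), and Adam10, another sheddase, fell with added TNFa (-0.56 ± 0.11, adjusted p = 0.000218). Of the 20 other genes of the EGF family axis 13 were tested. Of these, 2 rose and 5 fell in IL4_IL13 against Control (median log2 fold change -0.02), 5 rose and 4 fell with added TNFa (median -0.10; 4 and 6 under library totals), and 6 rose and 3 fell in IL4_IL13_TNFa against Control (median 0.15; 4 and 4 under library totals). Among all genes 59%, 59.6% and 73.8% passed in these comparisons under TMM. With Control replicate 1 left out the counts of the list were 3 and 5, 5 and 4, and 6 and 4.

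Fn1, which encodes fibronectin (ENSMUSG00000026193, chr1:71585520-71653200, minus strand), had the greatest rise with IL-4 and IL-13 among the 10 genes. Its CPM in replicates 1 to 6 were 123.1, 122.1, 133.8, 215.6, 168.2 and 264.4 in IL4_IL13_TNFa, 288.6, 339.2, 435.3, 524.9, 571 and 501.1 in IL4_IL13 and 23.5, 108.2, 40.9, 144.8, 100.6 and 202.5 in Control. All IL4_IL13 libraries were above all others, and in each of the 6 replicate numbers the order was IL4_IL13 above IL4_IL13_TNFa above Control. Fn1 rose 4.29-fold with IL-4 and IL-13 (log2 fold change 2.10 ± 0.39, adjusted p = 0.000165) and by 1.89 without Control replicate 1. It fell 2.59-fold with added TNFa (-1.37 ± 0.38, adjusted p = 0.00435). IL4_IL13_TNFa against Control did not pass (0.73 ± 0.38, adjusted p = 0.0894, and 0.52 without Control replicate 1). It passed with replicate numbers as blocks (0.89, adjusted p = 0.00849), with limma voom (1.00, adjusted p = 0.0319) and without Control replicate 6 (1.03, adjusted p = 0.0176).

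Stromal cells also express Fn1, and RNA of stromal markers differed between the libraries. The summed CPM of 14 markers, such as the collagen gene Col1a1, was 82.7, 201.4, 95.4, 249.6, 174.5 and 479.5 in IL4_IL13_TNFa replicates 1 to 6, 78.8, 264, 124.9, 384.2, 291.2 and 703.4 in IL4_IL13 and 26.7, 311.5, 136.5, 512.9, 379.7 and 812.2 in Control. The sum was highest in replicate 6 and lowest in replicate 1 of each group, and in replicates 2 to 6 it was highest in Control and lowest in IL4_IL13_TNFa. None of the 11 markers tested passed in the fit without a block, while with it 5 fell with added TNFa, 4 fell in IL4_IL13_TNFa against Control and 1, Col6a1, rose in IL4_IL13 against Control. Of 13177 genes the block called 4178 lower with added TNFa, 5139 lower in IL4_IL13_TNFa against Control and 4403 higher in IL4_IL13 against Control. The defining stromal genes Dcn, Lum and Thy1 averaged at most 0.111 CPM in any group, and Col1a1 averaged 72.8 CPM in IL4_IL13_TNFa, 114.6 in IL4_IL13 and 134.7 in Control. Fn1 per unit of the sum ranged from 0.551 to 1.49 (median 0.914) in IL4_IL13_TNFa, from 0.712 to 3.66 (median 1.66) in IL4_IL13 and from 0.249 to 0.882 (median 0.291) in Control. The 3 ranges overlapped, that of Control through replicate 1 alone, which gave the 0.882. Every other control lay below 0.551, the lowest IL4_IL13_TNFa value. With the stromal sum as a covariate Fn1 changed by 2.37 with IL-4 and IL-13 (adjusted p = 1.54e-08), by -1.21 with added TNFa (adjusted p = 2.61e-05) and by 1.17 in IL4_IL13_TNFa against Control (adjusted p = 3.68e-05). In that fit Tgfb1 in IL4_IL13 against Control (0.14, adjusted p = 0.033) and Hbegf with added TNFa (-0.66, adjusted p = 0.0382) also passed, and no other call of the 10 genes changed.

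**Figure D5:**
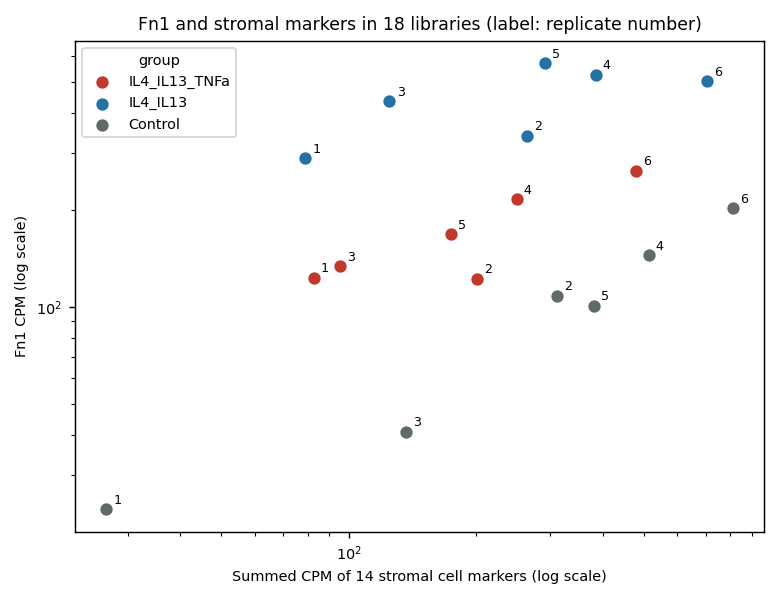
Fn1 CPM (y axis, log scale) against the summed CPM of 14 stromal cell markers (x axis, log scale) in the 18 libraries, labelled by replicate number. The IL4_IL13 libraries, at 288.6 to 571 CPM of Fn1, lie above those of IL4_IL13_TNFa, at 122.1 to 264.4, and of Control, at 23.5 to 202.5.

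The fibronectin receptor genes changed unequally. Itga5, the alpha chain of the classical fibronectin receptor, averaged 349 ± 18.9 CPM in IL4_IL13_TNFa, 254.4 ± 29.8 in IL4_IL13 and 266.5 ± 78.2 in Control (SD, n = 6 each). It rose with added TNFa under TMM (log2 fold change 0.46 ± 0.13, adjusted p = 0.00549), though not under library totals (0.25, adjusted p = 0.0971). Itgb1, its beta chain, rose by 0.27 ± 0.08 with IL-4 and IL-13 (adjusted p = 0.0058) and averaged 706.8 CPM in IL4_IL13_TNFa, 751.6 in IL4_IL13 and 625 in Control. Itgav, the alpha-v chain, fell in each comparison, with 118 ± 15.4 CPM in IL4_IL13_TNFa, 285 ± 72.2 in IL4_IL13 and 573.2 ± 181 in Control. Itgb3, a partner of alpha-v, averaged 60.2 ± 4.97 CPM in IL4_IL13_TNFa, 131.2 ± 7.75 in IL4_IL13 and 7.25 ± 1.77 in Control, a rise of 4.17 ± 0.13 with IL-4 and IL-13 (adjusted p = 5.35e-15) and a fall by 1.12 ± 0.11 with added TNFa (adjusted p = 4.02e-08), the same directions as Fn1.

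Tgm2, transglutaminase 2, a marker of IL-4-treated macrophages (ENSMUSG00000037820, chr2:158116402-158146436, minus strand), rose and fell in the same comparisons as Fn1, by less. Its CPM in replicates 1 to 6 were 170.8, 131.3, 127.8, 113.9, 122.6 and 132.7 in IL4_IL13_TNFa, 360.5, 243.8, 189.6, 196, 160.8 and 190.4 in IL4_IL13 and 262.4, 144.4, 105.3, 111.2, 92.9 and 105.7 in Control. Replicate 1 was the highest of each group and the groups overlapped, while IL4_IL13 was above both others within each of the 6 numbers. Tgm2 rose 1.63-fold with IL-4 and IL-13 (log2 fold change 0.71 ± 0.23, adjusted p = 0.0151) and 1.00 on the log2 scale without Control replicate 1 (adjusted p = 0.000135). Leaving out IL4_IL13 replicate 1 ended that call (0.52, adjusted p = 0.0513). With added TNFa Tgm2 fell by 0.75 ± 0.23 (adjusted p = 0.0101), to a level that did not differ beyond the spread from Control (-0.04 ± 0.23, adjusted p = 0.877; 0.25 without Control replicate 1). Exons of Rprd1b and Gm20412 on the other strand cover 8.03% and 13.74% of the Tgm2 exon bases. Rprd1b averaged 31.6 CPM in IL4_IL13_TNFa, 39.6 in IL4_IL13 and 35.5 in Control, and Gm20412 under 1 CPM in each group.

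F13a1, the transglutaminase of blood clotting, moved the other way with IL-4 and IL-13. It averaged 1.54 ± 0.714 CPM in IL4_IL13_TNFa, 3.41 ± 0.715 in IL4_IL13 and 43.8 ± 17.1 in Control, and fell with IL-4 and IL-13 (-3.68 ± 0.28, adjusted p = 3.36e-09) and with added TNFa (-1.13 ± 0.33, adjusted p = 0.00677). Tgm1 and Tgm3 averaged under 1 CPM in each group and were not tested.

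Tgfbi, named for its induction by TGF-beta (ENSMUSG00000035493, chr13:56609523-56639562, plus strand), did not pass in any comparison. Its CPM in replicates 1 to 6 were 1328.4, 1070.5, 1023.8, 1135.1, 897.2 and 1061.7 in IL4_IL13_TNFa, 1433, 997, 863, 1164.7, 713.8 and 896 in IL4_IL13 and 1671.9, 1119.7, 1011.7, 1144.1, 928.9 and 1063.7 in Control. The groups overlapped, and in every group replicate 1 was highest and replicate 5 lowest. The log2 fold change was -0.19 ± 0.16 in IL4_IL13 against Control (adjusted p = 0.294), 0.10 ± 0.16 with added TNFa (adjusted p = 0.593) and -0.09 ± 0.16 in IL4_IL13_TNFa against Control (adjusted p = 0.608). Under the replicate block the first of these passed (-0.20, adjusted p = 0.00714), lower in 5 of 6 numbers. Without Control replicate 1 it was -0.06 and the third was 0.05, while library totals turned the second to -0.10 (adjusted p = 0.576).

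Of the 33 other matrix proteins, crosslinkers and fibronectin receptors 30 were tested. Of these, 8 rose and 8 fell in IL4_IL13 against Control (median log2 fold change -0.19), 8 rose and 11 fell with added TNFa (median -0.48; 5 and 13 under library totals), and 10 rose and 12 fell in IL4_IL13_TNFa against Control (median -0.69; 8 and 13 under library totals). Under TMM 59%, 59.6% and 73.8% of all genes passed in these 3 comparisons. Lgals3, which encodes galectin-3, averaged 6812 ± 348.9 CPM in IL4_IL13_TNFa, 4372 ± 438 in IL4_IL13 and 1648.4 ± 140.2 in Control, and rose in each comparison. Sdc1, a cell surface proteoglycan, averaged 138.5 CPM in IL4_IL13_TNFa, 47.7 in IL4_IL13 and 23.6 in Control, and rose with added TNFa (1.54 ± 0.17, adjusted p = 2.46e-07). Vcan, the matrix proteoglycan versican, also rose with added TNFa (1.81 ± 0.18, adjusted p = 9.88e-08), with 25.5 CPM in IL4_IL13_TNFa, 7.27 in IL4_IL13 and 15.1 in Control. Emilin2, an elastic fibre glycoprotein, fell with added TNFa (-2.10 ± 0.15, adjusted p = 6.54e-10), and so did Plod1, a lysyl hydroxylase of collagen (-1.32 ± 0.10, adjusted p = 1.55e-09). Itga4, the alpha-4 integrin chain, fell with IL-4 and IL-13 (-1.40 ± 0.14, adjusted p = 1.15e-07). Leaving out Control replicate 1 gave 8 rises and 8 falls, 8 and 12, and 10 and 14 in the 3 comparisons, and the replicate block gave 9 and 8, 8 and 15, and 12 and 17. Calls over all 13177 genes rose with the block too, to 8632, 8516 and 10185 genes. Stromal cells express many genes of this list, and with the stromal sum as a covariate the rises and falls were 9 and 10, 8 and 12, and 13 and 13, with medians of -0.11, -0.13 and -0.21. Over all genes that fit called 8453, 8299 and 10007.

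Among 20 other secreted growth factors 16 were tested. Of these, 1 rose and 4 fell in IL4_IL13 against Control (median log2 fold change -0.32), 2 rose and 8 fell with added TNFa (median -0.88), and 3 rose and 11 fell in IL4_IL13_TNFa against Control (median -0.98). For all genes tested the shares that passed were 59%, 59.6% and 73.8% in the same comparisons. The rise with IL-4 and IL-13 in the list was that of Fgf2, a fibroblast growth factor (2.44 ± 0.21, adjusted p = 1.51e-08). Fgf2 averaged 3.86 CPM in IL4_IL13_TNFa, 6.98 in IL4_IL13 and 1.29 in Control. Inhba, the activin A chain, rose with added TNFa (3.25 ± 0.42, adjusted p = 2.45e-06), with 15.3 CPM in IL4_IL13_TNFa, 1.58 in IL4_IL13 and 2.3 in Control. Csf1, which encodes M-CSF, rose in IL4_IL13_TNFa against Control (1.61 ± 0.42, adjusted p = 0.00226). Gas6, which bridges dying cells to their receptors on phagocytes, fell in each comparison, with 35.2 CPM in IL4_IL13_TNFa, 118.5 in IL4_IL13 and 368.8 in Control. Grn (progranulin) fell with IL-4 and IL-13 (-0.48 ± 0.07, adjusted p = 1.56e-05), and Hgf, the hepatocyte growth factor, fell with added TNFa (-1.13 ± 0.15, adjusted p = 3.58e-06). Leaving out Control replicate 1 gave 2 rises and 5 falls, 2 and 9, and 3 and 12.

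Across the 18 libraries, the genes whose log2 CPM followed each of the 10 genes most closely differed from gene to gene. These Pearson correlations describe libraries that share groups and replicate numbers. Artn was followed most closely by Nqo1 (r = 0.992) and Tma16 (r = 0.991), and Vegfa by Gpr34 and Selenop (r = 0.996 each). Selenop averaged 32.4 CPM in IL4_IL13_TNFa, 247.2 in IL4_IL13 and 1378.9 in Control, and Nqo1 135.8, 13.4 and 14.8 CPM in that order. The closest genes were Cd300lb (r = 0.985) and Dse (r = 0.982) for Igf1, Syce2 (r = 0.969) and Reep4 (r = 0.968) for Pdgfa, and Snx8 (r = 0.966) and Scamp2 (r = 0.943) for Tgfb1. Tgm2 was closest to Ttf2 (r = 0.958) and Mtfr2 (r = 0.952), Hbegf to Irf2 (r = 0.910) and Idh1 (r = 0.884), and Fn1 to Zfp703 (r = 0.909) and Ptgs1 (r = 0.900). Pdgfb, with Ube2o (r = 0.884) and Cav2 (r = 0.879), and Tgfbi, with Cdk6 (r = 0.878) and Ddx19b (r = 0.876), had the lowest r with their closest gene among the 10 genes.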

How the data were processed

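Poly(A) RNA of 18 macrophage libraries was made into stranded libraries, per the labels' protocols. The deposited table holds whole-number read counts per Ensembl gene, not normalized, as its values show. The submitters' processing notes list featureCounts 1.5.1 and RSEM 1.3.0 beside STAR, in versions 2.5.2 and 2.5.2b, and the mm10 build (GRCm38). The sources used here name neither annotation release nor strand setting, so reads of genes that overlap on opposite strands may be mixed.

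IDs were matched to GENCODE M21 (GRCm38), which named 48434 of 48794 rows. Groups and replicate numbers come from sample titles. The filterByExpr step of edgeR 4.0.16, at a minimum count of 10, passed 13177 genes and each of the 10 described. Counts were scaled by TMM and all 18 libraries fitted in 1 quasi-likelihood model (robust) in R 4.3.3, with 3 contrasts, Benjamini-Hochberg adjustment over all genes and a threshold of 0.05. The approximate SE divides the size of the log2 fold change by the root of F. Length-scaled levels use merged exons and ignore which transcript is used. Intervals and the limit from a count of 0 (95%, 3 counts) cover counting error only.

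The 10 genes and the gene lists were chosen with earlier results of these data known, so counts over them carry no test. Named list genes are up to 2 per list, comparison and direction with the largest change among those past the threshold, whose higher group averaged 5 CPM or more and whose groups did not overlap, direct receptors and partners at any value, and the 2 genes most like each of the 10 (averaging 5 CPM or more; log2 CPM with a prior count of 2). Tgm1, Tgm3 and single marker genes, outside this rule, were chosen after their values were seen.

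Same-numbered libraries of different groups deviated together from their group means (r = 0.128 to 0.671 in 18 pairs), and 17 of 18 libraries were best matched by one of their own number, so the data treat the numbers as pairs, for a reason no label gives. Counts of 2 libraries of a group differed by a chi-square of at least 2.64 times its degrees of freedom in each of 45 pairs, above sampling noise. Alternatives were DESeq2 1.42.0 and its size factors, limma 3.58.1 voom, scaling by library totals, omitting the filter or raising it (5 CPM in 6 libraries), a replicate block, only the libraries compared, each library left out, the 3 libraries numbered 1 left out and, added later, a stromal covariate. Code was tested on simulated counts.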

Additional observations from a re-analysis of the deposited data

Results flagged for a closer look

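Dixon's test takes the gap of a library to the nearest value in its group of 6. It set off a library in 8 of 30 sets of values (10 genes in 3 groups). For normal values chance gives about 1 in 20. The sets share libraries, so 8 of 30 cannot be read as an excess over that rate. Control replicate 1 gave 5 of the 8. It held 641.1 CPM of Igf1 against 875.2 to 993.7 in the other controls, 262.4 CPM of Tgm2 against 92.9 to 144.4, and 1671.9 CPM of Tgfbi against 928.9 to 1144.1. It also held 89 CPM of Pdgfa against 43.8 to 53 and 288.1 CPM of Pdgfb against 217.9 to 232.9. For Tgm2 the library of the same number was set off in IL4_IL13_TNFa too, at 170.8 CPM against 113.9 to 132.7. IL4_IL13 replicate 6 held 80.2 CPM of Pdgfa against 69.9 to 72.1. Artn in IL4_IL13 replicate 1, at 0.192 CPM against 0 to 0.0538, rests on 4 counts.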

How the results depend on the processing

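Of 30 results (10 genes in 3 comparisons) 15 kept their call and direction in each setting they were fitted in (28, or 27 for Hbegf, not tested under the stricter filter, and for Artn in IL4_IL13 against Control, not tested when only the libraries compared were fitted), among them every call of Artn, Igf1 and Vegfa. The number of the 10 genes called was 6 to 9, 7 to 9 and 4 to 5 in the 3 comparisons over the settings, and with 1 library left out 6 to 8, 7 to 9 and 4 to 5, for 7179 to 9081, 7517 to 8727 and 9472 to 10371 genes called in all. The replicate block called 8632, 8516 and 10185 genes and 9, 9 and 5 of the 10; its gains among the 10 stand in the text, and it ended no call of the 10. Tgm2 in IL4_IL13_TNFa against Control changed sign without a filter (0.02), with voom (0.05), with the block (0.05), without Control replicate 1 (0.25), without IL4_IL13_TNFa replicate 4 (0) and without the 3 libraries numbered 1 (0.17), and passed in none of these; with 1 library left out it lay between -0.13 and 0.25. Library totals turned Tgfbi (-0.10) and Tgfb1 (-0.03) with added TNFa, and leaving out Control replicate 1 turned Tgfbi in IL4_IL13_TNFa against Control (0.05, with a range of -0.15 to 0.05 over libraries left out). Without a filter Tgm2 (0.76, adjusted p = 0.0538) and Pdgfa (0.44, adjusted p = 0.0504) in IL4_IL13 against Control and Tgm2 with added TNFa (-0.74, adjusted p = 0.0576) did not pass. Tgfb1 with added TNFa was lost under the stricter filter (0.15, adjusted p = 0.0753). Hbegf with added TNFa passed with DESeq2 (-0.90, adjusted p = 0.036) and library totals (-1.10, adjusted p = 0.0176), and Tgfb1 in IL4_IL13 against Control without a filter (0.20, adjusted p = 0.0147). For these the cause was not tested. Depth limits Hbegf, at 1 to 53 counts a library, and the level of Artn outside IL4_IL13_TNFa.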
